A study of Mus musculus with 6 samples.

Results

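The genes described here build the T cell receptor (TCR) complex and carry its first signals in mouse CD4+ T cells. They were chosen by name from the known pathway, with earlier results of these data known. Each gene was read from its transcript cluster with the highest mean over the 6 arrays. The list holds 49 names for 48 genes, because Gads is another name of Grap2, and 47 of these genes were analysed among 23410 transcript clusters with a gene name (35556 clusters in all). Lck was not analysed here. RNA came from CD4+TCRβ+ cells sorted from the lymph nodes of naïve females aged 8 weeks. The groups were C57BL/6J (B6) and the consomic strain B6-ChrYSJL, in which the Y chromosome of SJL replaced that of B6 by backcrossing. Daughters carry no Y chromosome, so the groups differ in the Y chromosome of the sires, and the question was whether it goes with a difference in the resting transcriptome of the daughters' T cells. Neither group was treated or immunized. Each group had 3 pools of 5 mice on 1 array each, 6 arrays in all, so values stand for pools and not for single mice.

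A T cell reads antigen through the variable TCR α and β chains, which have almost no cytoplasmic part and depend on the CD3 chains and CD247 to signal. Src family kinases phosphorylate the tails of these chains, ZAP-70 docks there and phosphorylates the adaptors LAT and SLP-76, and these gather the enzymes that open the calcium, Ras and NF-κB branches. Phosphatases, ubiquitin ligases and lipid kinases hold the signal in check, and in a resting lymph node T cell many of these proteins are already made.

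All values are log2 values of the robust multichip average (RMA), 1 per transcript cluster and array. A log2 fold change is the B6-ChrYSJL mean minus the B6 mean, so negative values are lower in B6-ChrYSJL, and its standard error (SE), 95% interval and p come from limma with Benjamini-Hochberg adjustment over all 23410 named clusters. Over those clusters 4 passed a false discovery rate (FDR) of 0.05 (0.0171%), and 2484 (10.6%) had an unadjusted p under 0.05. Arrays correlated at 0.991 to 0.993 with each other. A cluster was taken as above background when its mean exceeded 5.98, a level that 95% of the clusters of odour and pheromone receptor genes did not reach, since lymphocytes should not use these genes. By this level 14419 of the named clusters were above background.

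All 47 genes were above background, and 46 were above a stricter level of 6.79, their 99th percentile. The exception at the stricter level was Tec, a Tec family kinase, with a mean of 6.52. None of the 47 passed an FDR of 0.05, and the smallest adjusted p was 0.361. At an unadjusted p under 0.05 there was 1, Dgkz, against the 10.6% of all named clusters. The median log2 fold change of the 47 was -0.03, beside -0.02 for all clusters above background, and the range ran from -0.20 to 0.13. Of the 47, 31 lay below 0 and 16 above, beside 8014 below and 6405 above of the 14419 clusters above background. In bulk RNA, fewer cells of a type and less RNA per cell cannot be told apart.

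The arrays left little room for a large difference in most of these genes. For 42 of the 47 genes the 95% interval lay within 1.2-fold in either direction, against 49.8% of clusters above background, and for all 47 it lay within 1.5-fold. Differences smaller than 0.10 in size were measured for 40 of 47 genes (85.1%), and for 62.7% of the clusters above background. The median SD between pools of one strain was 0.051 for these genes and 0.090 for clusters above background. The genes also had brighter clusters, with a median mean of 10.01 against 7.95, and the part of brightness in their smaller spread was not tested.

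**Figure D1:**
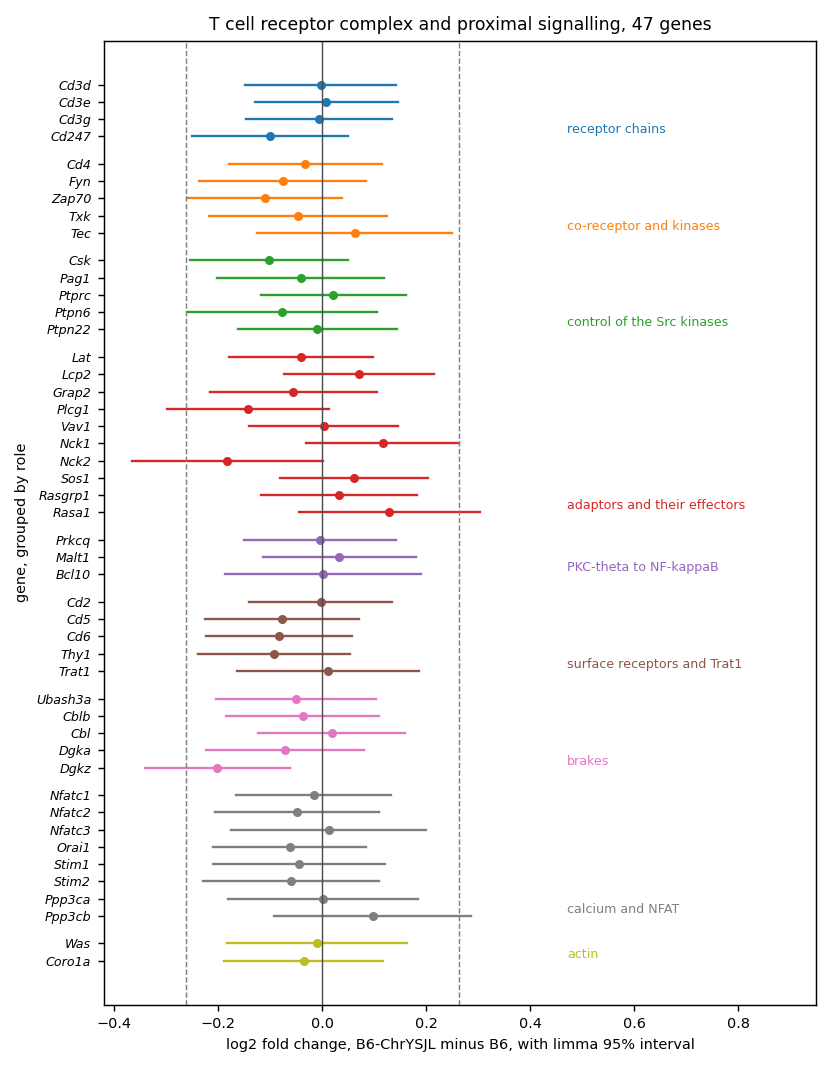
Log2 fold change of each of the 47 genes (x axis, B6-ChrYSJL minus B6) with its limma 95% interval, grouped by role on the y axis, from 3 pools per strain; dashed lines mark 1.2-fold. The interval of Dgkz alone lies wholly on one side of 0, and 42 intervals stay between the dashed lines.

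**Figure D2:**
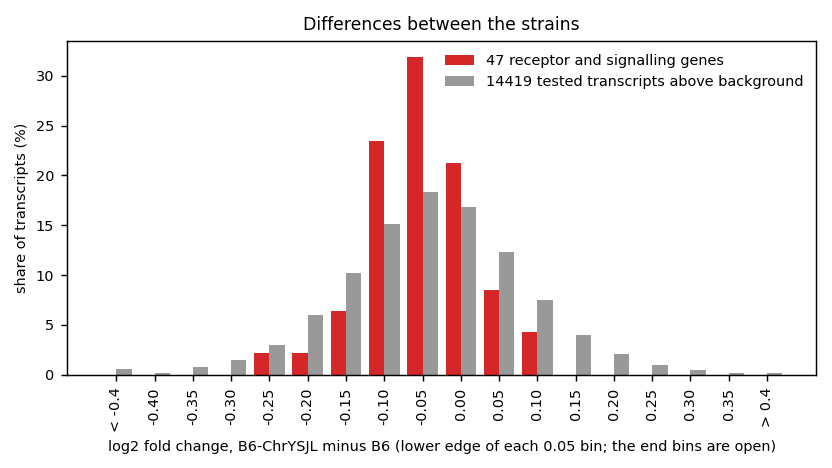
Share of transcripts (y axis, %) in each bin of log2 fold change (x axis, B6-ChrYSJL minus B6) for the 47 genes and for the 14419 named clusters above background. The 47 genes occupy the centre, from -0.20 to 0.13, while the other clusters reach further on both sides.

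The 3 CD3 chains did not separate the strains. CD3δ, CD3ε and CD3γ form the dimers that carry the TCR chains to the surface and pass on the signal. Cd3e measured 12.51, 12.48 and 12.49 in the B6 pools and 12.48, 12.50 and 12.53 in the B6-ChrYSJL pools. Its log2 fold change was 0.0078 (SE 0.060, 95% interval -0.13 to 0.14). Cd3d measured 12.40, 12.39 and 12.45 in B6 and 12.36, 12.46 and 12.40 in B6-ChrYSJL, a log2 fold change of -0.0032 (SE 0.064). Cd3g measured 12.05, 12.01 and 12.00 in B6 and 11.99, 12.05 and 12.00 in B6-ChrYSJL, a log2 fold change of -0.0059 (SE 0.061). In all 3 genes the pools of the strains overlapped, and the intervals lay within 1.2-fold. The sign of these differences changed for each of these genes when single pools were left out.

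The 3 CD3 genes lie beside each other on mouse chromosome 9, Cd3g and Cd3d head to head with starts 1355 bases apart and Cd3e a further 27825 bases along. Because these 3 neighbours each differed between the strains by less than their SE, the 150 bases before each start are shown, 5′ to 3′ on the strand of the gene, from RefSeq on GRCm38.p6. Capitals mark exact matches to CAGGAAGT, here called the ETS core, or to CAGGTG, here called the E-box. On the other strand these read ACTTCCTG and CACCTG. The ETS core is the kind of site read by ETS factors and the E-box by E proteins, both known regulators of T cell genes. Other forms of either site were not searched and stay in small letters. The stretches are chr9:44980432-44980581 (minus strand) for Cd3g, chr9:44981636-44981785 (plus strand) for Cd3d and chr9:45009612-45009761 (minus strand) for Cd3e.
Cd3g: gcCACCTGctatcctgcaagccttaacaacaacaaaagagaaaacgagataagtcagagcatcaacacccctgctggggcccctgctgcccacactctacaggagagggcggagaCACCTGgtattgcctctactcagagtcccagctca
Cd3d: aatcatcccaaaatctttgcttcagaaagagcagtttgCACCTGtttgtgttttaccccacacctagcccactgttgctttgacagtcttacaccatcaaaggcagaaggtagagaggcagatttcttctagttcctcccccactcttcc
Cd3e: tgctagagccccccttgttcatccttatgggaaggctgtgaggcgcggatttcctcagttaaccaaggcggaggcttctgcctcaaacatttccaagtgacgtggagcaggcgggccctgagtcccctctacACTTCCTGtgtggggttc

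Cd3g holds 2 E-boxes there, Cd3d 1 E-box and Cd3e 1 ETS core 18 bases before its start. Windows of 300 bases, 250 before the start and 50 after, were found for 39 of the 47 genes, 53 windows in all because some genes have several starts. The ETS core was in 7 of the 53 (13.2%) and in 3.33% of all 32851 windows of the table. A single Ptprc site lies in overlapping windows and was counted in each. By gene, the ETS core was found for 6 of 39, and for 1043 of 27025 over all windows. The E-box was in 16 of the 53 (30.2%) and in 20.2% of all windows, and the motifs did not overlap in any window. A match is a description of the letters and not a measured binding site.

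CD247, the ζ chain, carries the largest share of the signalling motifs. Cd247 measured 10.33, 10.34 and 10.38 in the B6 pools and 10.20, 10.32 and 10.22 in the B6-ChrYSJL pools. Every B6-ChrYSJL pool lay below every B6 pool, the closest by a few thousandths, and the log2 fold change was -0.10 (SE 0.066, 95% interval -0.25 to 0.05, adjusted p = 0.620). The gene lies on chromosome 1, apart from the others, and its window holds 2 ETS cores and 1 E-box. The ETS core before its start is shown for comparison with that of Cd3e, at chr1:165788612-165788641 on the plus strand.
Cd247: aaaccttcagaACTTCCTGcctatgaatcg

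Cd4, the co-receptor used for the sort, measured 11.52, 11.61 and 11.50 in B6 and 11.49, 11.54 and 11.49 in B6-ChrYSJL. The strains overlapped, and the log2 fold change was -0.03 (SE 0.064). Among the kinases, Zap70, the kinase that docks on the phosphorylated receptor chains, measured 9.69, 9.78 and 9.73 in B6 and 9.68, 9.61 and 9.58 in B6-ChrYSJL. The pools did not overlap, and the log2 fold change was -0.11 (SE 0.065, adjusted p = 0.583). Fyn, a Src family kinase of T cells, was at -0.08, Txk, a Tec family kinase of T cells, at -0.05, and Tec at 0.06, all with overlapping pools.

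Of the genes that set the activity of the Src kinases, Csk had the largest difference. Csk, which phosphorylates the inhibitory tyrosine of Src kinases, measured 10.14, 10.13 and 10.16 in B6 and 10.13, 10.00 and 10.00 in B6-ChrYSJL. The first B6-ChrYSJL pool lay just under the B6 pools and the other two lower, and the log2 fold change was -0.10 (SE 0.066, adjusted p = 0.616). Pag1, the membrane anchor of CSK, was at -0.04. Ptprc, which encodes CD45 and removes the same phosphate, was at 0.02. Ptpn22, a phosphatase that works beside CSK, was at -0.0096, and Ptpn6, which encodes SHP-1, at -0.08. All 5 intervals lay within 1.2-fold.

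The adaptors and their effectors held the differences nearest the threshold after Dgkz, in both directions. Lat, the membrane scaffold, measured 11.85, 11.87 and 11.83 in B6 and 11.82, 11.83 and 11.77 in B6-ChrYSJL. Its pools did not overlap by a narrow gap, with a log2 fold change of -0.04 (SE 0.061, adjusted p = 0.846). Lcp2, which encodes SLP-76, was at 0.07, and Grap2, which encodes the GADS protein that joins SLP-76 to LAT, at -0.06.

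Plcg1, the phospholipase that makes inositol trisphosphate and diacylglycerol, measured 9.91, 9.78 and 9.85 in B6 and 9.76, 9.67 and 9.69 in B6-ChrYSJL. No pools overlapped, and the log2 fold change was -0.14 (SE 0.068, 95% interval -0.30 to 0.01, adjusted p = 0.502). Rasa1, which encodes a GTPase-activating protein that turns Ras off, had one of 2 differences without overlap that were higher in B6-ChrYSJL. It measured 8.82, 9.005 and 9.02 in B6 and 9.04, 9.12 and 9.08 in B6-ChrYSJL, a log2 fold change of 0.13 (SE 0.076, adjusted p = 0.584). Of the exchange factors that turn Ras on, Sos1 was at 0.06 and Rasgrp1 at 0.03, and Vav1, an exchange factor for Rac, was at 0.0027.

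Nck1 and Nck2 encode closely related adaptors that link the receptor to actin, and their values ran opposite ways. Nck1 measured 8.59, 8.63 and 8.61 in B6 and 8.67, 8.79 and 8.72 in B6-ChrYSJL, without overlap, with a log2 fold change of 0.12 (SE 0.064, adjusted p = 0.556). Nck2 measured 7.69, 7.84 and 7.74 in B6 and 7.71, 7.52 and 7.50 in B6-ChrYSJL. Its first B6-ChrYSJL pool lay within the B6 range, and the log2 fold change was -0.18 (SE 0.080, 95% interval -0.37 to 0.0011, adjusted p = 0.473). The difference Nck2 minus Nck1 within an array was -0.90, -0.79 and -0.86 in B6 and -0.96, -1.27 and -1.22 in B6-ChrYSJL. This pair was picked out after its values were seen, so its difference is given with no test.

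**Figure D3:**
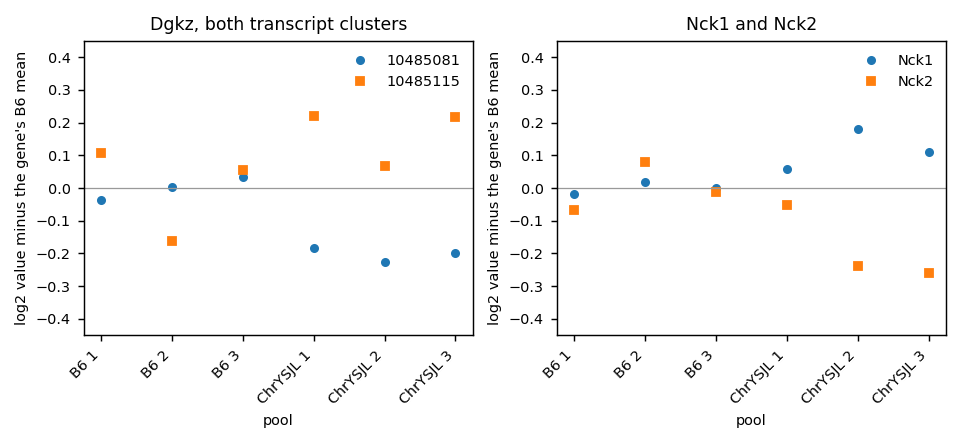
Log2 value in each pool minus the B6 mean of the same gene or cluster (y axis), by pool (x axis), for the 2 Dgkz transcript clusters (left, circles cluster 10485081, squares cluster 10485115) and for Nck1 and Nck2 (right, circles and squares). In both panels the B6-ChrYSJL points part in opposite directions, with log2 fold changes of -0.20 and 0.17 on the left and 0.12 and -0.18 on the right.

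The branch to NF-κB did not separate the strains. Prkcq, which encodes protein kinase C-θ, was at -0.0042 and Malt1, the protease of the complex, at 0.03. Bcl10, which joins MALT1 to its partners, measured 8.44, 8.65 and 8.62 in B6 and 8.61, 8.47 and 8.63 in B6-ChrYSJL, a log2 fold change of 0.0011 (SE 0.082). One pool of each strain was low, and Bcl10 was among the 3 genes with the widest spread between pools of a strain, a pooled SD of 0.10.

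Of the surface receptors, Cd5, Cd6 and Thy1 each had all B6-ChrYSJL pools below all B6 pools, by small amounts. Cd5, an inhibitory receptor whose level tracks the strength of self recognition, measured 11.50, 11.41 and 11.38 in B6 and 11.37, 11.35 and 11.33 in B6-ChrYSJL, a log2 fold change of -0.08 (SE 0.065). Cd6, a related receptor, measured 10.25, 10.26 and 10.24 in B6 and 10.13, 10.21 and 10.16 in B6-ChrYSJL, a log2 fold change of -0.08 (SE 0.061). Thy1, the pan T cell surface glycoprotein of the mouse, measured 12.95, 12.93 and 13.02 in B6 and 12.91, 12.87 and 12.83 in B6-ChrYSJL, a log2 fold change of -0.09 (SE 0.064). Their adjusted p values were 0.704, 0.660 and 0.635. Cd2, an adhesion receptor, was at -0.0028 and Trat1, a transmembrane adaptor of the receptor, at 0.01, with overlapping pools.

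The brakes held the single unadjusted p under 0.05. Dgkz encodes diacylglycerol kinase ζ, which removes the diacylglycerol that activates RASGRP1 and protein kinase C-θ. In its brighter cluster it measured 9.61, 9.64 and 9.67 in the B6 pools and 9.46, 9.42 and 9.44 in the B6-ChrYSJL pools. The strains were apart by more than the spread within either, with SDs of 0.034 and 0.022 over 3 pools, and the log2 fold change was -0.20 (SE 0.061, 95% interval -0.34 to -0.06). By limma the unadjusted p was 0.010 and the adjusted p = 0.361, so the call failed the correction.

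A second Dgkz cluster went the other way. It measured 6.87, 6.60 and 6.82 in B6 and 6.99, 6.83 and 6.98 in B6-ChrYSJL, with one overlap between the strains, and its log2 fold change was 0.17 (SE 0.089, adjusted p = 0.540). This cluster was dim, with a mean of 6.85 near the stricter background level of 6.79. Its pooled SD was 0.118, against 0.029 in the brighter one. With the 2 clusters averaged at equal weight, the log2 fold change of Dgkz was -0.02 with an adjusted p of 0.948. In that run no gene of the 47 had an unadjusted p under 0.05. The lower value of Dgkz in B6-ChrYSJL holds for its brighter cluster only. RefSeq gives Dgkz 2 starts on the minus strand of chromosome 2, and because the clusters disagreed the 150 bases before each are shown, at chr2:91963564-91963713 and chr2:91950349-91950498 of GRCm38.p6. Capitals mark the same 2 motifs, and which start each cluster measures was not tested.
Dgkz first start: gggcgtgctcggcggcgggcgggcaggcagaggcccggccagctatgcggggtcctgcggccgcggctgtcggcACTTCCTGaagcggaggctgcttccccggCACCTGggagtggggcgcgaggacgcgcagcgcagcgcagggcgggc
Dgkz second start: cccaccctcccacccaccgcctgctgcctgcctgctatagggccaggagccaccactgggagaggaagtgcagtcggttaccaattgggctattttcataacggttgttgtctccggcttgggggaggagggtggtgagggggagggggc

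The first holds 1 exact match to the ETS core string and 1 to the E-box string, and the second holds neither. The second does hold gaggaagt, which differs from CAGGAAGT in its initial letter only. Other forms of these sites were not searched, so whether the starts differ in such sites was not tested. Dgka, the other diacylglycerol kinase of the list, was at -0.07 with overlapping pools. Of the ubiquitin ligases that limit receptor signalling, Cblb was at -0.04 and Cbl at 0.02. Ubash3a, a phosphatase family protein that binds them, was at -0.05.

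The calcium branch runs from the store sensors through the plasma membrane channel to calcineurin and the NFAT factors, and none of its 8 genes separated the strains. The sensors Stim1 and Stim2 were at -0.05 and -0.06 and the channel subunit Orai1 at -0.06. Ppp3ca, a catalytic subunit of calcineurin, was at 0.0015. Ppp3cb, the other, measured 9.13, 9.07 and 9.26 in B6 and 9.12, 9.30 and 9.32 in B6-ChrYSJL, a log2 fold change of 0.10 (SE 0.083) with the widest spread of the 47 genes, a pooled SD of 0.10. Nfatc3 measured 10.55, 10.66 and 10.70 in B6 and 10.59, 10.79 and 10.57 in B6-ChrYSJL, a log2 fold change of 0.01 (SE 0.082) with a single high pool. Nfatc1 was at -0.02 and Nfatc2 at -0.05. The actin regulators Was, which encodes the Wiskott-Aldrich syndrome protein, and Coro1a, which encodes coronin 1A, were at -0.01 and -0.04.

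**Figure D4:**
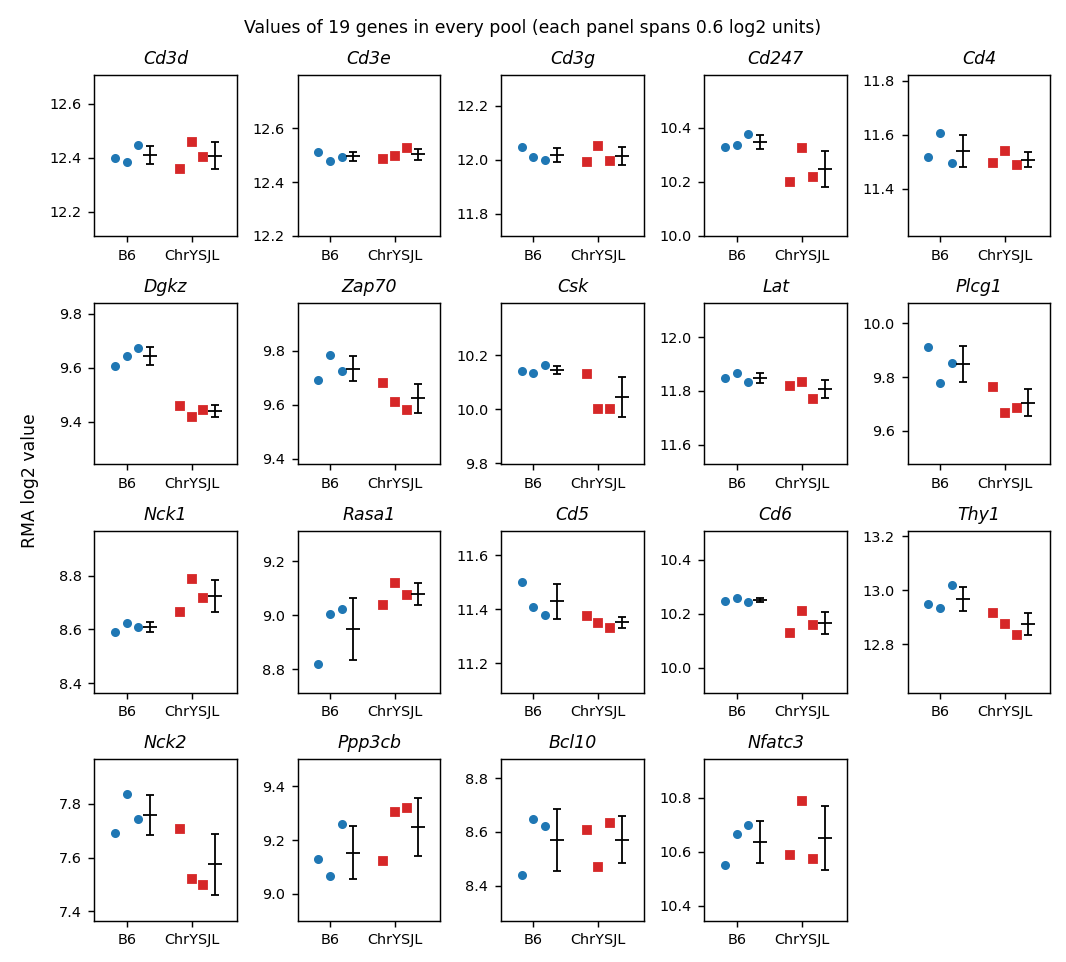
RMA log2 values (y axis) in each of the 3 B6 pools (circles) and 3 B6-ChrYSJL pools (squares) for 19 genes, with the group mean and SD at the right of each set; every panel spans 0.6 log2 units. The CD3 chains overlap closely, Dgkz shows the clearest gap, and Nck1 and Rasa1 lie higher in B6-ChrYSJL.

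Counting over the 47 genes, 9 had all B6-ChrYSJL pools below all B6 pools (Cd247, Zap70, Csk, Lat, Plcg1, Cd5, Cd6, Thy1 and Dgkz) and 2 had them all above (Nck1 and Rasa1). Among all clusters above background the shares were 12.2% lower and 7.96% higher. With 3 pools against 3, an exact permutation test of one gene cannot go below p = 0.10. Pools of a strain differed in how often they were the highest or lowest of their group. The third B6-ChrYSJL pool was the highest of its group for 4 of the 47 genes and the lowest for 21, and the first B6 pool was the lowest of its group for 24. Without the first pool of either strain the number of genes without overlap was 19 in place of 11, and without any other single pool it was 12 to 15. With a pool left out, fewer values have to be apart for every cluster, so this number can stay or rise but not fall. It therefore does not show what a single pool adds to the 11. The shares over all clusters were not counted for these runs.

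The rest of the pathway was read from a list of 65 further TCR signalling genes, of which 56 were analysed. All 56 were above background, and none passed an FDR of 0.05. At an unadjusted p under 0.05 there were 6 lower in B6-ChrYSJL and 1 higher, beside the 10.6% of all named clusters in either direction. Of the 14419 clusters above background, 1031 were lower and 574 higher at that p. Cish, which encodes an inhibitor of cytokine and receptor signals that binds PLC-γ1, measured 7.94, 7.97 and 7.97 in B6 and 7.69, 7.67 and 7.69 in B6-ChrYSJL. The pools were well apart, and the log2 fold change was -0.27 (SE 0.059, adjusted p = 0.254). Cabin1, an inhibitor of calcineurin, was at -0.23, and Pik3cd, the catalytic subunit of the lymphocyte PI3-kinase, at -0.19. Itpr3, an inositol trisphosphate receptor, was at -0.20, Grb2, the adaptor that brings SOS to LAT, at -0.21, and Map4k1, which encodes the SLP-76 regulator HPK1, at -0.18. Cdc42, the GTPase that activates the protein of Was, was at 0.20 and was the one that was higher. Among the others with the smallest p, Ptpn11, which encodes SHP-2, was at -0.15 and Rasgrp2 at -0.14. The median of the 56 was -0.02, and all of their intervals lay within 1.5-fold.

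Other cell types were checked on the same arrays. The summed level of 2 CD8 T cell markers was 8.55 to 8.71 in B6 and 8.25 to 8.40 in B6-ChrYSJL, a range above background although the sort selected CD4. For regulatory T cell markers it was 12.45 to 12.56 and 12.18 to 12.26, and for activated or memory T cell markers 12.05 to 12.18 and 11.54 to 11.69. These sums did not overlap. At an unadjusted p under 0.05, 2 of 2 CD8 T cell and 6 of 8 regulatory T cell markers were lower in B6-ChrYSJL. So were 9 of 9 activated or memory and 2 of 7 naïve T cell markers. Higher were 3 of 13 B cell, 3 of 7 stromal and 1 of 11 myeloid markers. The B cell ones were H2-Ab1, H2-Eb1 and Ebf1, and the myeloid one was Itgax. Ebf1 and Itgax were below background, with means of 5.23 and 5.37. Of all 23410 named clusters 1385 were lower and 1099 higher at that p, 10.6% in either direction. The marker lists were chosen with earlier results of these data known, so these counts describe the lists and are not a test. For B cell markers the sum was 10.22 to 10.32 in B6 and 10.12, 10.67 and 10.76 in the B6-ChrYSJL pools, with 4 of 13 markers below background, Ms4a1, Cr2, Fcer2a and Ebf1. The sums of naïve T cell, NK cell, myeloid, γδ T cell, stromal and erythroid markers overlapped between the strains, although single markers did not, such as the stromal genes Col1a2, Col3a1 and Pdpn, higher in B6-ChrYSJL. Some of these sums say little about their cell type. Only 2 of 7 NK cell and 3 of 11 myeloid markers were above background. The γδ T cell sum holds 2 genes and the erythroid sum Alas2 alone. The stromal sum follows Pecam1, with a mean of 10.01 and a log2 fold change of -0.02. The other stromal markers had means of 5.82 to 7.07. The part of the marker shifts in the values of Dgkz, Cd247, Zap70 and the other genes without overlap was not tested.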

How the data were processed

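RNA of 6 pools, 50 ng each, was amplified and hybridized to Affymetrix Mouse Gene 1.0 ST arrays. The authors deposited log2 values made by RMA in Partek (background correction, quantile normalization, median polish), and the submitters' notes also name GCOS and mm9. A cluster value averages probes along a transcript, so splicing was not measured here. Quantile normalization would hide a change shared by most genes. Cluster names came from the platform's annotation, with symbols brought up to date from RefSeq (21789 with 1 symbol, 1621 with several), and each gene was read from its brightest cluster with 1 symbol. Groups were compared with limma 3.58.1 (lmFit, eBayes, two-sided) in R 4.3.3, checked on simulated data. Pools are separate samples per the labels. Replicate numbers were not used as pairs. The members and lists were chosen with earlier results of these data known. Pool values are given for the receptor chains, Cd4, genes at an unadjusted p under 0.05 or without overlap, the 6 smallest p, the 3 widest spreads and disagreeing clusters; other genes are given by their log2 fold change. Alternatives were the methods' linear model without moderated variances, trend and robust variances, array weights, filters, normalizations, a replicate block and leaving out each array.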

Additional observations from a re-analysis of the deposited data

How the results depend on the processing

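None of the 47 genes passed an FDR of 0.05 in any alternative run. The count over all named clusters, 4, was 0 with the methods' unmoderated model and with all deposited clusters, 47 with trend and robust variances, 13 when only clusters above background were tested, 11 with median-centred arrays, 2 after repeated quantile normalization, and 0 to 7 when each array was left out in turn. The 1 gene at an unadjusted p under 0.05 became 4 with the unmoderated model, 4 with trend and robust variances, 2 with array weights, 3 above background, 3 median-centred, 3 after repeated quantile normalization, 0 with clusters of a gene averaged, and 1 to 2 without single arrays. Dgkz was among them in each of these but the averaged one, with its log2 fold change from -0.22 to -0.19 without single arrays. The same counts without single arrays were 12 to 19 for genes without overlap and 31 to 35 for intervals within 1.2-fold. Shares over all clusters were not counted for these 2 ranges, so they have no background beside them. The other pathway genes, 7, were 11 with the unmoderated model. Over all 23410 named clusters 2484 had an unadjusted p under 0.05. That count was 2274 with the unmoderated model, 2761 with trend and robust variances and 2736 with array weights. It was 2480 median-centred, 2371 after repeated quantile normalization and 1781 to 2517 without single arrays. When only the 14419 clusters above background were tested it was 1990. Of the 19 genes given with their pool values, 6 changed sign in at least 1 alternative, Cd3d, Cd3e, Cd3g, Cd4, Bcl10 and Nfatc3: Nfatc3 was -0.0074 with array weights, Cd3e -0.0027 median-centred and -0.012 after repeated quantile normalization, and Bcl10 -0.0094 median-centred. Without single arrays Cd3d ran from -0.029 to 0.021, Cd3e from -0.0041 to 0.017, Cd3g from -0.025 to 0.0088, Cd4 from -0.055 to 0.0007, Bcl10 from -0.064 to 0.051 and Nfatc3 from -0.056 to 0.051. Same-numbered pools did not deviate together (correlations of -0.0001, -0.036 and -0.017). With the replicate number as a block 3 clusters passed an FDR of 0.05, 1 gene of the 47 had an unadjusted p under 0.05 (Dgkz, adjusted p = 0.491), and 36 intervals lay within 1.2-fold. With 3 arrays per strain small differences are hard to resolve, and larger ones can also fail an FDR of 0.05. The marker Ccr2 differed 1.78-fold with an adjusted p of 0.071 by limma, but its B6-ChrYSJL mean of 5.62 lay under the background level. The brighter marker S100a6, with a mean of 9.16, had a log2 fold change of -0.77 and an adjusted p of 0.102 by limma. A difference of similar size did pass. The regulatory T cell marker Itgae, with a mean of 7.69, had a log2 fold change of -0.87 and an adjusted p of 0.022 by limma. Itgae was among the 4 named clusters that passed in the main run.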

Other observations

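Genes that do the same steps in B cells and myeloid cells were mostly dim. Of 13 analysed counterparts 7 were above background, among them Cd79a, Cd79b, Fgr and Vav3. Cd79b, a signalling chain of the B cell receptor, measured 7.21, 7.38 and 7.42 in B6 and 7.22, 7.61 and 7.78 in B6-ChrYSJL, a log2 fold change of 0.20 (SE 0.137). Rasgrp3, below background with a mean of 4.89, had a log2 fold change of 0.47 (SE 0.132, adjusted p = 0.344), the 1 counterpart of 13 at an unadjusted p under 0.05, beside 10.6% of all named clusters.

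Clusters of TCR α variable segments were added after the data were seen. There were 45, but only 34 distinct sets of values, and 7 clusters had a single symbol. Of the 34, 2 were higher in B6-ChrYSJL at an unadjusted p under 0.05 and 0 lower, beside 10.6% of all named clusters in either direction, with log2 fold changes from -0.19 to 0.37, a median of 0.04 and a smallest adjusted p of 0.40 by limma.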
